A study of Mus musculus with 8 samples.

Results

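The genes described are 10 immediate early response genes, Fos, Fosb, Jun, Junb, Egr1, Egr2, Atf3, Ier3, Dusp1 and Nr4a1, out of 22180 genes tested on the array. They were taken by name, with earlier results of these data known, and each had exactly 1 probe set that the platform annotation assigns to its symbol alone. Their RNA was measured on whole-transcript arrays in the middle colon of 4 Trim58-/- mice (KO) and 4 Trim58+/+ mice (WT). All 8 mice were females, 9 weeks old, of the line labelled C57BL/6-Trim58tm2313Arte. Both genotypes had drunk 4% dextran sodium sulfate (DSS), which injures the colon epithelium and causes colitis, for 7 days, then plain water for 5 days, and were killed on day 12. The KO mice lack Trim58 in every cell, and no mouse was without DSS, so the values compare genotypes after colitis and do not show what DSS did. The labels do not say whether the WT mice were littermates of the KO mice. Values are log2 array signals, on which a difference of 1 is a 2-fold difference.

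Immediate early genes are transcribed within minutes of a stimulus such as a growth factor, a cytokine, mechanical stretch or cell stress, without new protein synthesis. The signal usually passes through MAP kinases to transcription factors already bound at these genes, among them serum response factor with its ETS partners and CREB, and the RNAs are short-lived. In the gut, injury, microbial products and the handling of tissue are all known to switch them on. Fos, Fosb, Jun, Junb and Atf3 encode basic leucine zipper proteins that pair into AP-1 type factors, Egr1 and Egr2 encode zinc finger factors, and Nr4a1 encodes an orphan nuclear receptor. Ier3 encodes a regulator of cell survival that stress and NF-kB signalling induce, and Dusp1 a phosphatase that switches MAP kinases off.

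The promoters below are those of the 3 genes with an unadjusted limma p under 0.05 (Ier3, Nr4a1 and Fosb), with Fos, the best known gene of the class, beside them. The matches marked differ in kind or number among them. Each is the 250 bases before a RefSeq transcription start (GRCm38.p6), written on the gene's strand. Ier3 lies at chr17:35821463-35821712 on the plus strand, Nr4a1 at chr15:101266596-101266845 on the plus strand, Fosb at chr7:19310046-19310295 on the minus strand and Fos at chr12:85473640-85473889 on the plus strand. Capitals mark the cyclic AMP response element (CRE) half-site TGACG on either strand, the EGR site GCGNGGGCG on either strand and the TATA box TATAAA.
Ier3: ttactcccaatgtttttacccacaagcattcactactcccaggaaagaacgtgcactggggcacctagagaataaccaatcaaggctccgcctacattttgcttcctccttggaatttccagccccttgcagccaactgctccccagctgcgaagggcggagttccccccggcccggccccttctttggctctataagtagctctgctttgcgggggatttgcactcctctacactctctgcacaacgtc
Nr4a1: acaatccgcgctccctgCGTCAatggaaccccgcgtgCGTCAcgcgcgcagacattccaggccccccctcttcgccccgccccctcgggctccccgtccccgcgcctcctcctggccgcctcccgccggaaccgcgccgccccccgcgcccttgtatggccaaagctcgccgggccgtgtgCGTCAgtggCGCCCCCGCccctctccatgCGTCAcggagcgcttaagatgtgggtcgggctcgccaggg
Fosb: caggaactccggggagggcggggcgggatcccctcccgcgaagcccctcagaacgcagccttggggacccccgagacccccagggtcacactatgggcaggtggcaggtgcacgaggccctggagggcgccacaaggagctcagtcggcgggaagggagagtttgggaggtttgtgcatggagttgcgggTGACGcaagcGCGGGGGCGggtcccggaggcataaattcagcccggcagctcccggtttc
Fos: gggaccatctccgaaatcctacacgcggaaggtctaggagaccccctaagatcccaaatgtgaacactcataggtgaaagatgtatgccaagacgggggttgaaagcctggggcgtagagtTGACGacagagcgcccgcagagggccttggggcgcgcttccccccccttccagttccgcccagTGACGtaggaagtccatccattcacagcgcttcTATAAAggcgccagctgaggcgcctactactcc

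In the Fos promoter CRE half-sites began 129 and 66 bases before the start, and a TATA box 33 bases before it. Nr4a1 held 4 CRE half-sites, all read on the opposite strand, and an EGR site that began 60 bases before the start. Fosb held an EGR site that began 50 bases before the start and a CRE half-site 10 bases further upstream, whereas none of the letters searched occurred in the Ier3 window. Promoter windows were given for 9 of the 10 genes, all but Egr1, and each window also took in 50 bases after the start. A CRE half-site was present for 7 of these 9 genes, against 23.0% of all 27025 genes with a window. This motif was added to the search later than the others. Egr2 had 5 windows and each of the other genes 1, and a gene counted if any of its windows matched. The full CRE TGACGTCA, which contains the half-site on both strands, was found in Dusp1 alone among the 9, against 2.03% of all genes. The CArG box, the core of the serum response element, was found in Egr2 alone, against 1.81% of all genes. EGR sites were found in 2 of the 9 genes, Fosb and Nr4a1, against 6.27% of all genes, and the AP-1 site TGANTCA in 0 of the 9, against 8.97%. TATAAA was found in Fos and, at the start itself, in Junb, against 15.7% of all genes. These matches describe letters in a short window and were not tested against the arrays.

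None of the 10 immediate early genes differed between KO and WT colon past the limma test with Benjamini-Hochberg adjustment over all genes (adjusted p under 0.05). Over all genes 0.392% were called higher in KO and 0.185% lower. The largest difference was in Ier3, which was 1.73-fold higher in KO, followed by Nr4a1, 1.33-fold higher, and both missed the threshold. The AP-1 genes Fos, Fosb and Atf3 had lower means in KO, by 0.27, 0.28 and 0.23 on the log2 scale, and missed it as well. At an unadjusted limma p under 0.05 the count was 2 higher (Ier3 and Nr4a1) and 1 lower (Fosb) of 10, against 6.22% and 8.10% of all genes. An exact two-sided permutation test took the 70 ways to assign 4 of 8 arrays. In it 2 of the 10 genes, Ier3 and Nr4a1, reached the smallest p that design allows, 0.0286. That p is reached only where the genotypes do not overlap. Over all genes this held for 3.79% with KO above WT and 5.02% with KO below WT.

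**Figure D1:**
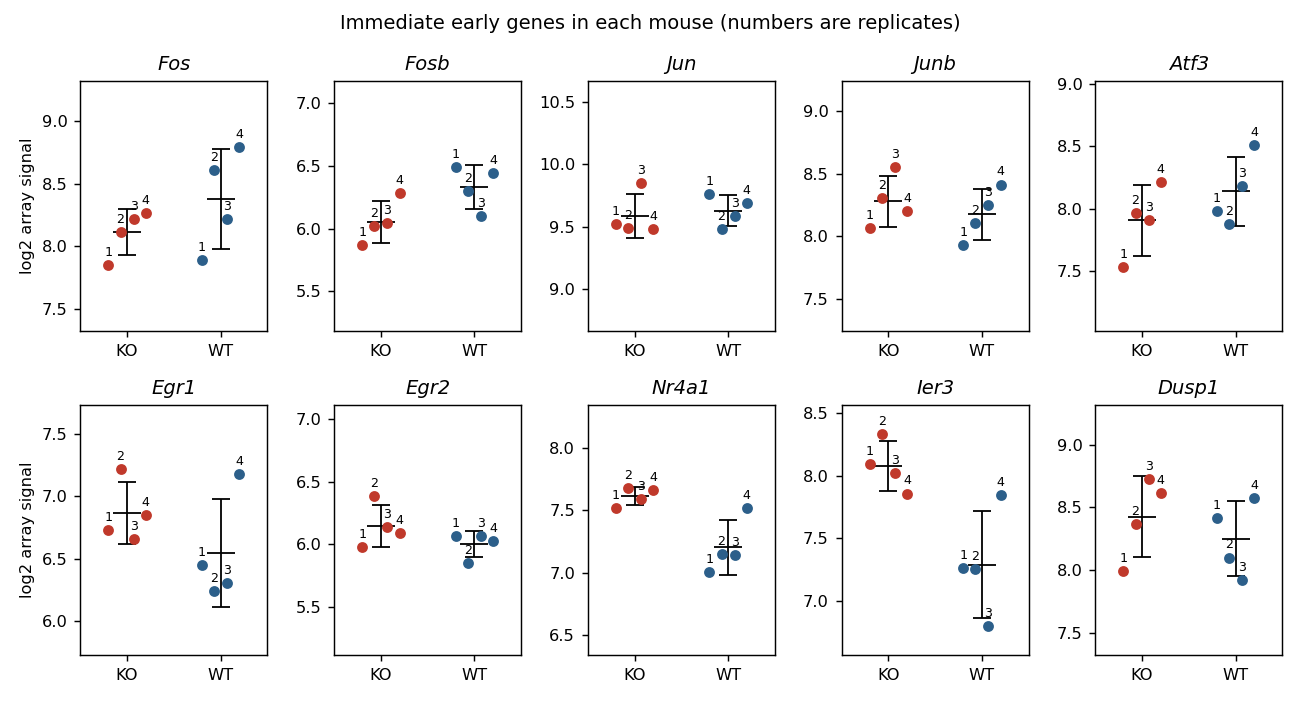
Log2 array signal (vertical axis, 2 log2 units in every panel) of the 10 immediate early genes in each KO mouse (red, left) and each WT mouse (blue, right), with replicate numbers, the mean and the SD. The KO and WT points overlap for every gene except Ier3 and Nr4a1, whose lowest KO value lies just above WT mouse 4.

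Trim58 itself did not separate the genotypes. Its signal was 4.91, 5.37, 4.82 and 5.11 in KO mice 1 to 4, against 5.22, 5.07, 5.18 and 5.03 in WT mice 1 to 4 (limma adjusted p = 0.839), so it gives no check of the genotypes. Where its probes sit relative to the deletion is not stated in the labels. Of the cell type markers, 7 of 8 neutrophil genes passed the test upwards, and their mean log2 signal ran from 7.33 to 8.44 in KO and from 5.20 to 5.78 in WT. Mean smooth muscle signal (8 of 8 genes below 0, 0 passing) ran from 10.06 to 10.65 in KO and from 10.42 to 10.83 in WT, and fibroblast signal (8 of 8 above 0, 1 passing) from 9.94 to 10.29 in KO and from 9.52 to 9.91 in WT. Epithelial markers (1 of 8 genes above 0, 0 passing) averaged 10.46 to 10.62 in KO and 10.51 to 10.70 in WT. Digestive enzyme genes of the pancreas averaged 10.54, 11.42 and 11.19 in KO mice 1, 2 and 4, against 5.21 in KO mouse 3 and 5.33 to 5.42 in WT. In bulk tissue, more cells of a type and more RNA per cell cannot be told apart, and the part of these cell types in the values below was not tested.

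Ier3 was the member with the largest difference. It had log2 signals of 8.09, 8.34, 8.02 and 7.86 in KO mice 1 to 4, against 7.27, 7.25, 6.80 and 7.84 in WT mice 1 to 4. WT mice 1, 2 and 3 lay well below every KO mouse, while WT mouse 4 came within 0.0153 of the lowest KO value. The means were 8.08 ± 0.20 in KO and 7.29 ± 0.43 in WT (SD, n = 4 each), a log2 difference of 0.79 (SE 0.19, 95% interval 0.36 to 1.21, limma adjusted p = 0.0995). Without WT mouse 4 the difference was 0.97 and passed the test (limma adjusted p = 0.0455), and over all fits without 1 array its adjusted p ran from 0.0455 to 0.289. The neutrophil markers above were higher in the same KO mice, and their part in the Ier3 difference was not tested. In KO mouse 3, which lacked the pancreatic signal, Ier3 stood 0.73 above the WT mean. With the mean of the pancreatic genes as a covariate the difference was 0.73 without passing (limma adjusted p = 0.808). That mean was high in KO mice 1, 2 and 4 only, so it nearly follows genotype. A fit with it rests mostly on KO mouse 3 against the WT mice and has little power to pass.

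Nr4a1, a nuclear receptor that restrains inflammatory gene expression in macrophages, read 7.52, 7.68, 7.59 and 7.66 in KO mice 1 to 4. WT mice 1 to 4 read 7.00, 7.15, 7.14 and 7.52. The KO mice were tightly grouped and WT mouse 4 again stood apart from its group, only 0.00203 below the lowest KO mouse. The difference was 0.41 (SE 0.11, 95% interval 0.16 to 0.65, limma adjusted p = 0.125), and without WT mouse 4 it was 0.51 and passed (limma adjusted p = 0.0455). Over all fits without 1 array the limma adjusted p ran from 0.0455 to 0.327. All 4 KO values above all 4 WT values, as for Ier3 and Nr4a1, was seen for 3.79% of all genes, and the reverse, seen for none of the 10, for 5.02%. Of the related receptors, Nr4a2 differed by 0.26 (limma adjusted p = 0.523) and Nr4a3 by 0.35 (limma adjusted p = 0.315), with overlapping groups.

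**Figure D2:**
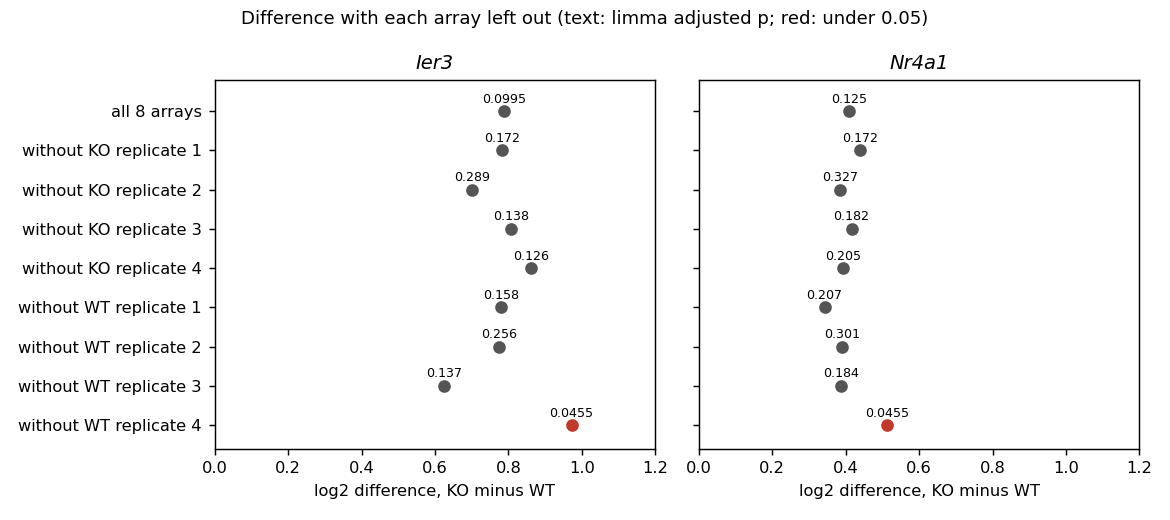
Log2 difference between KO and WT (horizontal axis) for Ier3 (left panel) and Nr4a1 (right panel) with all 8 arrays and with each array left out, and the limma adjusted p printed above each point. Red marks the 2 fits under 0.05, both without WT replicate 4.

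The FOS genes leaned the other way without passing. Fosb, whose protein needs a JUN partner to bind DNA, had signals of 5.87, 6.02, 6.04 and 6.28 in KO mice 1 to 4, against 6.49, 6.30, 6.10 and 6.45 in WT mice 1 to 4. KO mouse 4 and WT mouse 3 made the groups overlap. Its means were 6.05 ± 0.17 in KO and 6.33 ± 0.18 in WT (SD, n = 4 each), a log2 difference of -0.28 (95% interval -0.53 to -0.03, limma adjusted p = 0.294, exact permutation p = 0.0571). These signals lie near the median of all gene means, 6.22, where RMA values can be compressed, so the difference may be understated. The means of Egr2, Egr3 and Egr4, given below, were under that median and share this limit. Compression was not examined here. Fos read 7.85, 8.12, 8.22 and 8.27 in KO mice 1 to 4. In WT mice 1 to 4 it read 7.89, 8.61, 8.22 and 8.79, with WT mice 1 and 3 inside the KO range and WT mice 2 and 4 above it. The difference was -0.27 (95% interval -0.67 to 0.14, limma adjusted p = 0.566), and it was -0.13 without WT mouse 4 and -0.43 without WT mouse 1.

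Jun and Junb were closest to equal means. Jun, the main partner of the FOS proteins, had 9.52, 9.49, 9.85 and 9.48 in KO mice 1 to 4, against 9.76, 9.48, 9.58 and 9.69 in WT mice 1 to 4. KO mouse 3 was the highest of all 8 mice, the other 3 KO mice lay at the bottom of the WT range, and the difference of -0.04 had a 95% interval of -0.27 to 0.19 (limma adjusted p = 0.905). Junb, which often opposes Jun, read 8.07, 8.30, 8.55 and 8.20 in KO mice 1 to 4 and 7.93, 8.11, 8.25 and 8.41 in WT mice 1 to 4. The groups overlapped over most of their range, with a difference of 0.11 (95% interval -0.18 to 0.39, limma adjusted p = 0.774) that ran from 0.02 to 0.18 with 1 array left out. Jund, the third JUN gene, which is expressed without stimulation, was lower in KO by mean (9.25 ± 0.16 in KO and 9.54 ± 0.17 in WT, SD, n = 4 each, limma adjusted p = 0.262).

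Atf3, a stress-induced repressor that pairs with JUN proteins, read 7.53, 7.96, 7.91 and 8.22 in KO mice 1 to 4. In WT mice 1 to 4 it read 7.98, 7.88, 8.18 and 8.51. KO mouse 1 was the lowest and WT mouse 4 the highest, and the 3 other KO mice lay within the range of the WT mice. The difference was -0.23 (95% interval -0.60 to 0.13, limma adjusted p = 0.584), and it was -0.11 both without WT mouse 4 and without KO mouse 1.

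The EGR genes had higher means in KO, with overlap. Egr1 read 6.73, 7.22, 6.66 and 6.85 in KO mice 1 to 4, against 6.45, 6.24, 6.30 and 7.18 in WT mice 1 to 4. WT mice 1 to 3 lay below every KO mouse, as for Nr4a1, but WT mouse 4 lay above 3 of the 4 KO mice. Its means of 6.86 ± 0.25 in KO and 6.54 ± 0.43 in WT (SD, n = 4 each) differed by 0.32 (95% interval -0.13 to 0.77, limma adjusted p = 0.529), by 0.53 without WT mouse 4 (limma adjusted p = 0.147) and by 0.20 without KO mouse 2 (limma adjusted p = 0.816). Egr2, which in T cells limits activation, read 5.98, 6.38, 6.14 and 6.09 in KO mice and 6.07, 5.85, 6.07 and 6.03 in WT mice. KO mice 2, 3 and 4 were above every WT mouse and KO mouse 1 was not, with a difference of 0.14 (95% interval -0.08 to 0.37, limma adjusted p = 0.576), or 0.06 without KO mouse 2. Of their relatives, Egr3 had a difference of 0.16 (limma adjusted p = 0.693) and Egr4 one of -0.10 (limma adjusted p = 0.700).

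Dusp1, the feedback phosphatase of the class, read 7.99, 8.37, 8.73 and 8.61 in KO mice 1 to 4, against 8.42, 8.10, 7.92 and 8.57 in WT mice 1 to 4. The spread within each genotype (SD 0.32 in KO and 0.30 in WT) exceeded the difference of 0.17 (95% interval -0.23 to 0.57, limma adjusted p = 0.726), which ran from 0.06 to 0.32 with 1 array left out. For 9 of the 10 genes, all but Ier3, the unadjusted 95% interval lay within a 2-fold difference in either direction. For 7 of the 10 it included 0. With the pancreatic covariate none of the 10 passed, in a fit with little power to pass, as given above. The difference was then 0.38 for Nr4a1, 0.10 for Egr1, 0.34 for Junb, 0.43 for Dusp1 and 0.21 for Jun.

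**Figure D3:**
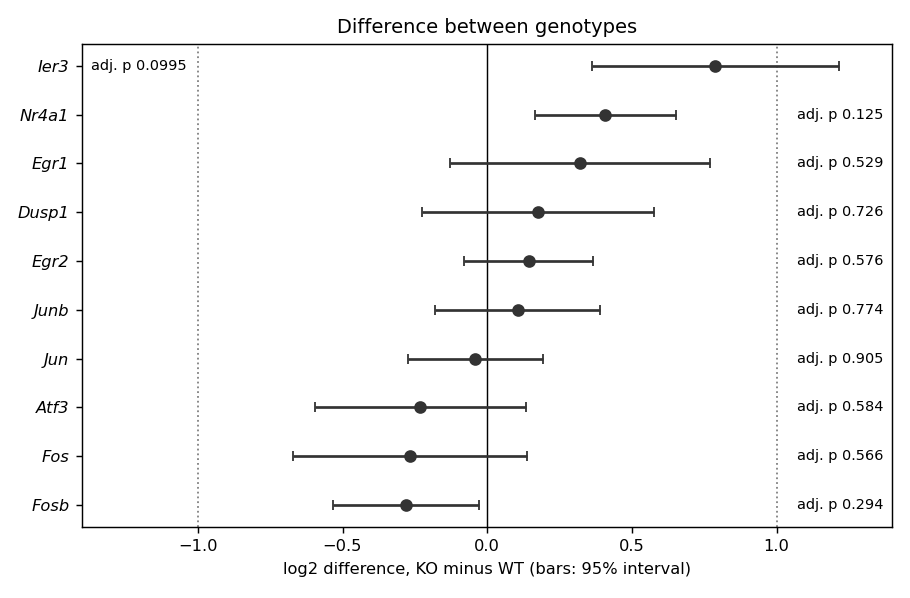
Log2 difference between KO and WT (horizontal axis) of each immediate early gene, with its unadjusted 95% interval from limma and its adjusted p; dotted lines mark a 2-fold difference either way. Ier3 alone reaches past a line, and the intervals of Ier3, Nr4a1 and Fosb leave out 0.

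Several of these genes were high or low together in the same mouse. WT mouse 4 was above the WT mean for 10 of 10 genes and the highest WT mouse for 7 of 10 (Fos, Junb, Egr1, Atf3, Ier3, Dusp1 and Nr4a1), while it was the highest WT mouse for 30.2% of all genes. KO mouse 1 was below the KO mean for 9 of 10, Ier3 excepted, and the lowest KO mouse for 7 of 10, against 25.3% of all genes. Averaged over the 10 genes, KO mouse 1 stood 0.19 below the KO mean and the other KO mice 0.04 to 0.08 above it. WT mouse 4 stood 0.30 above the WT mean and the other WT mice 0.07 to 0.14 below it. The mean of 10 log2 signals was 7.52, 7.79, 7.77 and 7.75 in KO mice 1 to 4. In WT mice 1 to 4 it was 7.53, 7.50, 7.46 and 7.90. WT mouse 4 alone stood above every KO mouse, and the other WT mice lay below KO mice 2, 3 and 4. Macrophage markers (7 of 8 measured, 0 passing the genotype test) moved with these 2 mice: their mean was 8.52 in KO mouse 1, against 8.89 to 8.94 in the other KO mice, and 9.09 in WT mouse 4, against 7.83 to 8.66 in the other WT mice. Mast cell markers (8 of 8 measured, 0 passing) were dim, with list means under the median of all gene means, 6.22. They were lowest in KO mouse 1 among the KO mice by a small margin only (4.85, against 4.87 to 5.22). They were highest in WT mouse 4 among the WT mice (5.36, against 4.80 to 4.99). No other marker list had both. WT mouse 4 also had the lowest array median, 5.73, where the others had 5.77 to 5.83. The part of any of these in the values of the 10 genes was not tested.

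**Figure D4:**
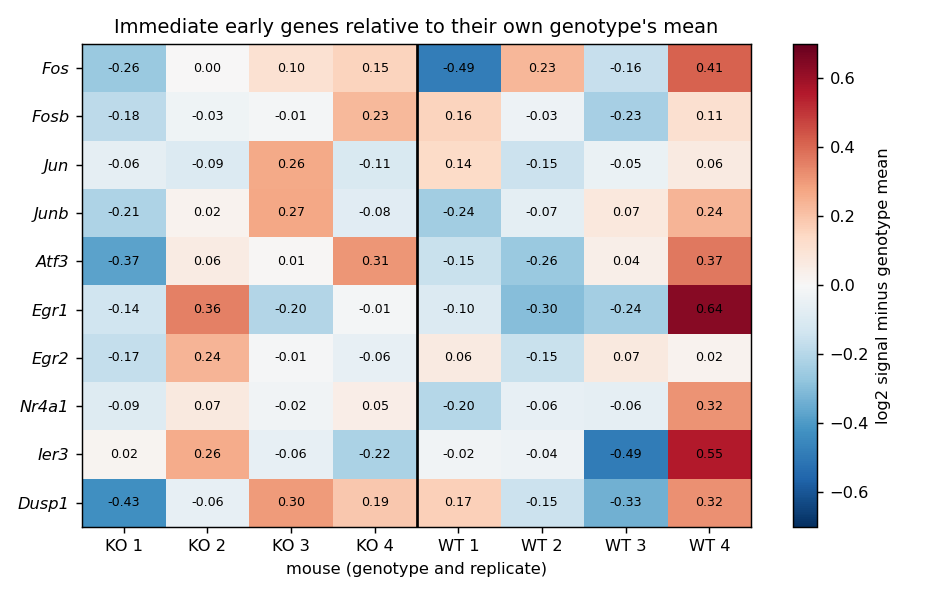
Log2 signal of each immediate early gene in each mouse minus the mean of that mouse's own genotype (colour and printed value), KO mice on the left and WT mice on the right of the line. The column of WT mouse 4 is above 0 for all 10 genes and that of KO mouse 1 below 0 for 9.

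Among 11082 other genes with a mean above the median of all genes, Orai1 varied most like the mean of the 10 once each genotype's mean was taken off (Pearson r = 0.997, Spearman rho = 0.98, 8 arrays). Orai1 encodes the pore of the store-operated calcium channel, and read 7.16, 7.35, 7.35 and 7.35 in KO mice 1 to 4 and 7.40, 7.35, 7.33 and 7.70 in WT mice 1 to 4. KO mouse 1 and WT mouse 4 set this pattern too. Without these 2 arrays r was 0.99, but the genotype means taken off still included them. That centring alone places the remaining KO mice above 0 and the remaining WT mice below it. This r therefore cannot show whether the likeness holds without the 2 arrays. The next were Tmem189, Chac2, a glutathione-degrading enzyme gene, Gatd1, and Pold4, which encodes a small subunit of DNA polymerase delta. Their r was 0.976, 0.973, 0.971 and 0.97. Without those 2 arrays it was 0.925, 0.935, 0.90 and 0.90, with the same centring and the same limit. These genes were picked as the highest of many, so no p is given.

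The 6 other lists of the pathway held 75 measured genes of 80, and limma called 0 of them higher and 0 lower. At an unadjusted limma p under 0.05, 10 of the 75 were higher and 10 lower, against 6.22% and 8.10% of all genes. The median log2 difference was 0.12 over the 10 immediate early genes and 0.04 over these 75, against -0.01 over all genes tested. Of these, 6 higher and 3 lower were among the 27 other immediate early genes. Klf4, a zinc finger factor of differentiated colonocytes, had the smallest p, with 9.55, 9.77, 10.12 and 9.62 in KO mice 1 to 4, against 10.23, 10.49, 10.16 and 10.43 in WT mice 1 to 4. Every KO mouse lay below every WT mouse, with a difference of -0.56 (95% interval -0.85 to -0.27, limma adjusted p = 0.0924), and without KO mouse 3 it passed at -0.68 (limma adjusted p = 0.0219). Over all fits without 1 array the limma adjusted p for Klf4 ran from 0.0219 to 0.255. With the pancreatic signal as a covariate the Klf4 difference was -0.24 (limma adjusted p = 0.937), and in KO mouse 3 alone -0.21. Ccn1, a matrix protein gene named after its value was seen, went the other way. It had 8.95, 9.07, 7.95 and 8.63 in KO mice 1 to 4, against 7.41, 7.68, 7.87 and 7.88 in WT mice 1 to 4, with KO mouse 3 just above the WT range. The difference was 0.94 (limma adjusted p = 0.0924), and without KO mouse 3, the KO mouse without pancreatic signal, 1.17 (limma adjusted p = 0.00502). Over all fits without 1 array the limma adjusted p for Ccn1 ran from 0.00502 to 0.256. Ccn1 stood 0.24 above the WT mean in KO mouse 3, and with the pancreatic covariate its difference was 0.28 (limma adjusted p = 0.957). That fit has little power to pass, as given above. The part of the pancreatic signal in Klf4 and Ccn1 was not tested.

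Among 9 other dual specificity phosphatases, Dusp2, an inducible phosphatase of immune cells, had the smallest p, with means of 7.00 ± 0.23 in KO and 6.50 ± 0.20 in WT (SD, n = 4 each, log2 difference 0.50, limma adjusted p = 0.125). Dusp6, which acts on ERK and was chosen after its value was seen, had a difference of -0.26 (limma adjusted p = 0.281). Of 12 upstream kinases and factors, Mapk9, the kinase JNK2, had the smallest p, with 7.88 to 8.06 in KO and 8.14 to 8.22 in WT and no overlap (difference -0.23, limma adjusted p = 0.181). Srf, serum response factor itself, had a difference of -0.03. Of 10 ATF and leucine zipper partners, Jdp2, a repressor that pairs with JUN, had a difference of 0.36 (limma adjusted p = 0.251). Of 9 heat shock genes, Hspb1, a small chaperone, had a difference of -0.40 in its brightest probe set (limma adjusted p = 0.227) and of -0.14 over the mean of its probe sets (limma adjusted p = 0.587), and Hspa1a, which can share signal with its near copy Hspa1b, 0.49 (limma adjusted p = 0.598). Of 8 genes listed as feedback on EGR and ERK signalling, 7 had differences above 0 (0.02 to 0.19). Spred2, an inhibitor of ERK activation, was the exception and had the smallest p, with a difference of -0.22 (limma adjusted p = 0.222). The differences with the pancreatic covariate were 0.54 for Dusp2, 0.42 for Jdp2, -0.46 for Hspb1, -0.30 for Spred2 and -0.13 for Mapk9. None of these passed. In KO mouse 3 alone the differences were 0.57, 0.46, -0.49, -0.32 and -0.12, in the same order of genes.

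**Figure D5:**
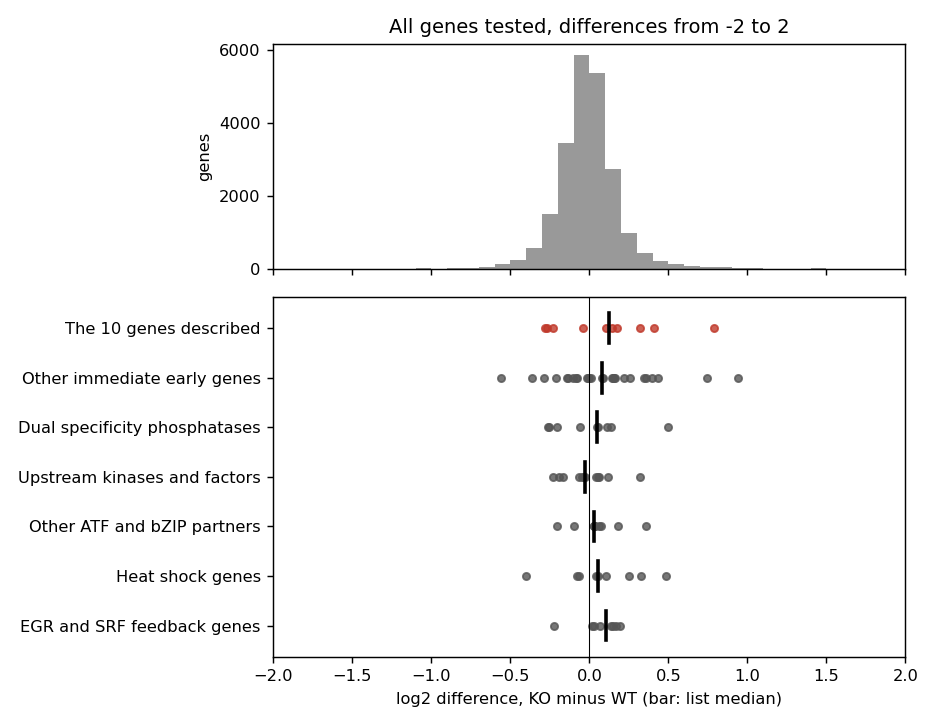
The upper panel counts all genes by their log2 difference between KO and WT, and the lower panel shows each gene of the 10 immediate early genes (red) and of the 6 other lists (grey) with the list median (black bar). The 10 genes run from -0.28 to 0.79, and the other lists from -0.56 to 0.94.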

How the data were processed

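Total RNA (200 ng per mouse) was labelled with biotin by a whole-transcript kit, per the labels' protocols. The authors deposited log2 values made by RMA in Affymetrix Expression Console 1.4, per the submitters' processing notes, a method that corrects background, equalises the arrays and summarises probes. The table held 41345 probe sets, of which 16010 had no gene symbol in the annotation and 1814 had several. The 23521 with exactly 1 were used, their symbols updated through the RefSeq gene table (23328 matched). The brightest probe set was kept per gene, which left 22180 genes. The KO minus WT difference was fitted by limma (version 3.58.1, under R 4.3.3) with no covariate and adjusted by Benjamini-Hochberg over all genes. The scripts were tested on simulated data.

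The immediate early genes and the lists were chosen with earlier results of these data known. The rule for named genes took the 10 genes, Trim58, the smallest p of each other list and the 5 genes most like the 10. Jund, Dusp6, Srf, Hspa1a, Ccn1 and the Egr and Nr4a relatives were named after their values were seen, and the CRE half-site was added later. The labels name separate mice. They state no pairing by replicate number. Deviations of same-numbered mice correlated from -0.16 to 0.05, which cannot show whether mice were paired. Arrays correlated between 0.972 and 0.989, and none was identical to another. The number of arrays limits precision, and the sources used here give no scan dates. Alternatives were another variance model, array weights, other normalizations, a dim-gene filter, probe set means, a block, an acinar covariate and leaving out arrays.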

Additional observations from a re-analysis of the deposited data

Results flagged for a closer look

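4 values lay far from the other 3 of their genotype, among 46 groups of 4 values (23 genes in each genotype), where chance gives about 1 in 20 groups. Jun in KO mouse 3 was 9.85, against 9.48 to 9.52 in the other KO mice. Jdp2 in KO mouse 1 was 6.47, against 6.85 to 6.86 in the other KO mice. Orai1 in KO mouse 1 was 7.16, against 7.35 in each of the others. Chac2 in WT mouse 4 was 7.69, against 7.48 to 7.50 in the other WT mice. Orai1 and Chac2 were chosen for following the 10 immediate early genes, which KO mouse 1 and WT mouse 4 also set apart.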

How the results depend on the processing

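No immediate early gene was called lower in any alternative, and none higher except Ier3 with array weights (1 gene; log2 difference 0.82, limma adjusted p = 0.0493) and Ier3 and Nr4a1 without WT mouse 4; without 1 array the count called higher ran from 0 to 2. In the 6 other lists the fits without 1 array called 0 to 1 gene higher and 0 to 1 lower. Over all genes, 87 higher and 41 lower became 56 and 8 with the replicate block, 2 and 0 with the acinar covariate, and 14 and 0 with KO mouse 3 alone against the 4 WT mice, a setting added after the data were seen in which the lone KO mouse is assumed to vary like the WT mice. The count lower was 64 with a trended robust variance, 69 with array weights and 80 without the dimmest genes. Without 1 array, 24 to 172 were higher and 1 to 80 lower. Jun turned to 0.21 with the acinar covariate and 0.22 in KO mouse 3 alone, and ran from -0.13 to 0.0031 without 1 array; Trim58 ran from -0.18 to 0.0029. The cause was not tested. The other 9 immediate early genes kept their direction in all 17 alternatives. The replicate block changed no call among the immediate early genes. With motifs counted only before the start, TATAAA was found in 1 of 9 genes and the other counts stood.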
